A study of Mus musculus with 9 samples.

Results

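The SLC25 genes encode the mitochondrial carriers, the largest group of transport proteins of the mitochondrial inner membrane. The members described here were every protein-coding gene of the deposited gene table whose name begins with Slc25a followed by a digit, which gave 47 of 54532 genes and 47 of 22046 protein-coding genes. One further gene of that name pattern, Slc25a5-ps, is a pseudogene and was left out. The measurements were RNA sequencing of RAW 264.7, a mouse macrophage line from an ascites tumour labelled as wild type (WT). There were 3 groups of 3 libraries: untreated control cells, cells given lipopolysaccharide (LPS) at 1 µg/ml, and cells given the same LPS with H-CDs at 400 µg/ml. LPS is a bacterial outer membrane component that activates macrophages through Toll-like receptor signalling, and its exposure was 6 h. The labels do not spell out H-CDs, and the series title speaks of a superoxide dismutase nanozyme made from fruit. A single immortalised line carried all groups, no group had H-CDs without LPS, and nothing in the labels states that a group's libraries were separate cultures. The p-values therefore measure the spread between these libraries, which may be technical.

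A mitochondrial carrier is a small protein of repeated membrane-spanning modules that moves a metabolite, nucleotide, cofactor or ion across the inner membrane, often in exchange for another. Members carry ADP and ATP, phosphate, citrate, aspartate, glutamate, iron, glutathione, NAD and coenzyme precursors, and so couple the matrix to the cytosol. Macrophages given LPS are known to rewire the citric acid cycle, and export of citrate by Slc25a1 and exchange of dicarboxylates by Slc25a10 and Slc25a11 are routes by which matrix intermediates reach the cytosol.

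Values are FPKM, fragments scaled by exon length and by library depth, as deposited by the authors, so levels can be set side by side between genes of different length. Whole reads recovered from them gave 14377161 to 16069968 reads per library. Of the 47 members, 34 reached FPKM 1, and they were the same 34 in each of the 9 libraries. The lowest value among them in any library was 1.25 FPKM and the highest value among the other 13 was 0.797 FPKM, so that the threshold fell in a gap. At FPKM 5 the number reached in all libraries was 21, and at FPKM 0.5 it stayed at 34. Tests covered the 11707 genes with FPKM of at least 1 in at least 3 libraries, which took in 72.3% of the members and 44.4% of protein-coding genes.

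One library stood apart. LPS + H-CDs replicate 1 had 0.490% of its reads in the 13 mitochondrially encoded messenger RNAs, against 1.62% and 1.64% in the other LPS + H-CDs libraries, 1.45% to 1.64% with LPS and 1.49% to 1.99% in control. Results that rest on LPS + H-CDs are given with and without it where it moved them. The macrophage label held, since 8 of 8 macrophage markers reached FPKM 1 in every library and no T cell, B cell, fibroblast, epithelial or erythroid marker reached it in any, although 1 of 3 endothelial markers did in some library. Il1b, the interleukin-1 beta gene induced by LPS, stood at 0 to 0.125 FPKM in control and at 453 to 465 FPKM with LPS, so the LPS labels held.

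The promoters of 5 members are printed first. Slc25a10, Slc25a45 and Slc25a23, which moved more with LPS than Slc25a36 did, are not shown. The printed promoters were chosen after values were seen, and partly for the motifs they hold. They come from RefSeq on GRCm38.p6, run 5′ to 3′ on the gene's strand from 250 bases before to 50 bases after an annotated start, and all lie on the minus strand. For Slc25a25, at chr2:32424017-32424316, and Slc25a36, at chr9:97110992-97111291, capitals mark TGACGTCA, the cyclic AMP response element letters, beginning at position -150 and -161 from the start. For Slc25a33, at chr4:149774218-149774517, capitals mark a match on the opposite strand to TGACNNNGC, the core of the antioxidant response element, at position -32; the same letters hold TGACG. The windows of Slc25a12, at chr2:71367706-71368005, and Slc25a22, at chr7:141437825-141438124, have neither of these motifs.
Slc25a25: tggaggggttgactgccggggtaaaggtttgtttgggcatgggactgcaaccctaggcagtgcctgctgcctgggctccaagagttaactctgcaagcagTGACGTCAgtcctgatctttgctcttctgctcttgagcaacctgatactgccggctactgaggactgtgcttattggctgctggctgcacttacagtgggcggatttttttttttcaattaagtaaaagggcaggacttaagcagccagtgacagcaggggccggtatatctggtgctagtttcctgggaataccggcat
Slc25a36: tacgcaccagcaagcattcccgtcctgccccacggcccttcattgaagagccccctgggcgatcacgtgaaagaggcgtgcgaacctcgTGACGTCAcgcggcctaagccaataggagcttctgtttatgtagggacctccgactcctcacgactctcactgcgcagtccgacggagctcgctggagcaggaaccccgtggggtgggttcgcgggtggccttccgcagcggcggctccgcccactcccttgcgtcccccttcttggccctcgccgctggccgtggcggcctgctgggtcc
Slc25a33: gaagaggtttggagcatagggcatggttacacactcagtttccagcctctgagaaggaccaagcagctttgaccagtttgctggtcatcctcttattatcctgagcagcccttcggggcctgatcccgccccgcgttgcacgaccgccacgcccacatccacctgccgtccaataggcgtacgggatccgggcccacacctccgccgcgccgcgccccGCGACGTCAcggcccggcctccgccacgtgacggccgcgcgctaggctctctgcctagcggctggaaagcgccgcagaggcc
Slc25a12: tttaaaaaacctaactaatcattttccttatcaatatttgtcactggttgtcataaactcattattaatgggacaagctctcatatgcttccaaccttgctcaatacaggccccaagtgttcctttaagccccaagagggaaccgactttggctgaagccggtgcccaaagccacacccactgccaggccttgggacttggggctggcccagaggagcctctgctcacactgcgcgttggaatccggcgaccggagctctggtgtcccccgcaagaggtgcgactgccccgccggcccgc
Slc25a22: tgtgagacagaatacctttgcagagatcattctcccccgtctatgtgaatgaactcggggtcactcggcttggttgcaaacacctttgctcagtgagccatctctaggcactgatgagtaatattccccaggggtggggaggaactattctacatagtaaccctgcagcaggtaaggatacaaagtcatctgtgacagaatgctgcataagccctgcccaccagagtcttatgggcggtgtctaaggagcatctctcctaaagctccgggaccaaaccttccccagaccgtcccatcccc
RefSeq lists 36 members in its promoter table, and 27 of the tested members have 35 windows there. TGACGTCA was in 2 of those 35 windows, 5.71%, against 1.79% of all 32851 windows and 3.26% of the 10227 windows of tested genes. TGACNNNGC was in 11 windows of 8 members, 31.4%, against 12.4% of all windows and 14.5% of those of tested genes. Both strands were searched, and a TGACGTCA match always counts as a TGACG match. The windows of Slc25a14 overlap one another, as do those of Slc25a23, and each of these windows has a TGACNNNGC match. Other letters searched were CACGTG in 7 of the 35 windows (20% against 10.5% of windows of tested genes) and CCAAT in 17 (48.6% against 38.0%). Below the share of tested genes were TGACG in 11 (31.4% against 32.9%) and the NRF1 palindrome in 2 (5.71% against 14.2%). So were a loose NF-kB pattern in 20 (57.1% against 67.5%), CCGGAAG in 6 (17.1% against 19.6%) and TATAAA in 0 (against 1.03%). Slc25a25 and Slc25a36 share the TGACGTCA letters and moved in opposite directions with LPS, as given below. The printed Slc25a25 window was picked for those letters. Its window at chr2:32451421-32451720, not printed, has 2 matches to TGACNNNGC and none to TGACGTCA. The reads were counted per gene, so they do not tell which of the 3 windows of Slc25a25 or of Slc25a22 lies at a start in use.

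The family spanned a 298-fold range of mean FPKM. A mean over 50 FPKM was found for 4 members, 14 lay between 10 and 50, and 16 between 1 and 10; their median mean was 10.4 FPKM, against 7.63 FPKM for all tested genes. Slc25a5, the main ADP/ATP carrier of growing cells, led at a mean of 478 FPKM and made up 40.9% to 48.3% of the family's summed FPKM. Slc25a3, the phosphate carrier that feeds ATP synthase, was next at 96.7 FPKM. Slc25a4, the ADP/ATP carrier typical of muscle, followed at 66.1, Slc25a39, a glutathione importer, at 61.6 and Slc25a11, the oxoglutarate carrier, at 44.0 FPKM. The coefficient of variation within a group ran from 0.654% to 27.1% with a median of 6.74%. The family took 0.339% to 0.358% of reads in control, 0.277% to 0.285% with LPS and 0.277% to 0.290% with LPS + H-CDs.

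**Figure D1:**
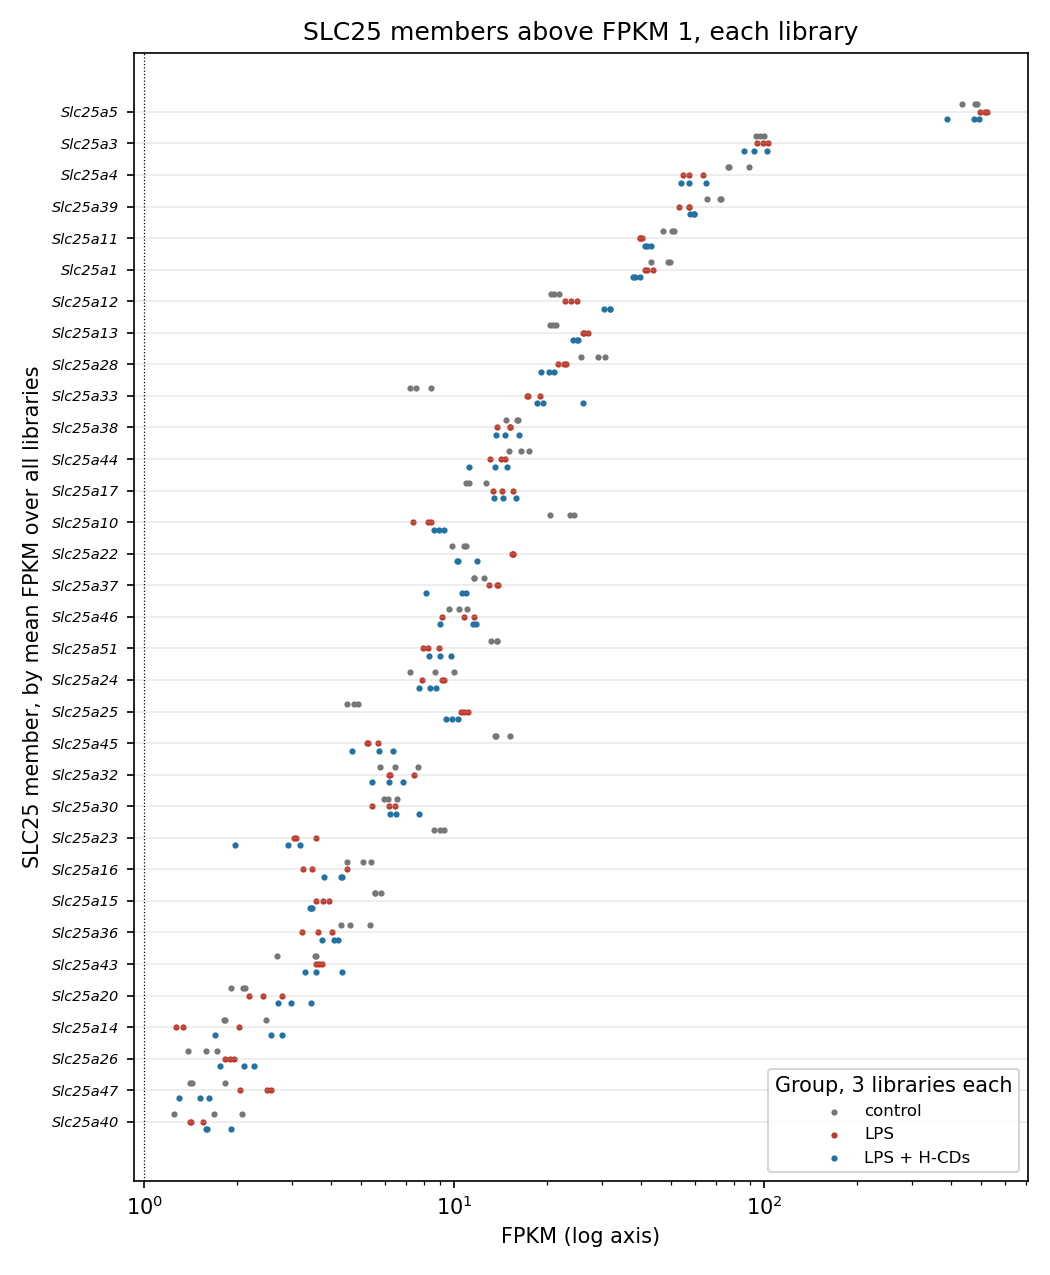
FPKM on a log axis for 33 of the 34 SLC25 members that reached FPKM 1, sorted by mean, with 1 point per library and the 3 groups in separate colours and rows. Slc25a5 stands alone near 478 FPKM, and the dotted line marks FPKM 1. For Slc25a10, Slc25a45, Slc25a23, Slc25a33 and Slc25a25, control is visibly apart from both LPS groups.

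LPS against control asks which carriers changed when the macrophages were activated. Of the 34 tested members 8 rose and 11 fell, 55.9% called, by limma on log2(FPKM + 1) with Benjamini-Hochberg adjustment over all tested genes at 0.05. The share called among all tested genes was 55.6%, with 28.8% higher and 26.8% lower, so the members' count was near the background. Libraries of the groups did not overlap for 25 of the 34, against 63.9% of all tested genes. The members' median log2 fold change was -0.02 and that of all tested genes 0.03. The changes were unequal in size: 5 members passed a log2 fold change of 1 in either direction, where 12.1% of all tested genes did. Fold changes on this scale understate those of low genes.

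LPS + H-CDs against LPS asks which carriers moved when H-CDs were added. Among the 34 tested, 1 member rose and 4 fell, 14.7% called against 15.6% of all tested genes, with 6.54% higher and 9.05% lower. Libraries did not overlap for 15 members, against 36.8% of all tested genes. The median log2 fold change was 0.02 for members and -0.01 for all tested genes, and no member moved by 1 on that scale. In LPS + H-CDs against control there were 6 members higher and 11 lower, 50% against 52.0% of all tested genes, with 26.7% higher and 25.4% lower; 21 did not overlap, against 57.7%. Each pair of these comparisons shares a group of libraries, so values are set side by side only.

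The scaling sets part of the LPS directions. With each library scaled to its own total of reads the median over tested genes moved to -0.22 on the log2 scale, and with FPKM rescaled to TPM, where every library has the same sum, to -0.30. The members called with LPS became 3 higher and 17 lower, and 2 higher and 19 lower, under these scalings. Slc25a12, Slc25a3, Slc25a37 and Slc25a5 turned from higher to lower under both, and Slc25a13 and Slc25a17 under TPM. The 11 members that fell stayed lower under both, with larger values such as -0.65 under TPM for Slc25a11. Of those that rose, Slc25a25 and Slc25a33 alone were still called higher under TPM, and with them Slc25a22 with total reads. Slc25a3 also turned in edgeR. Directions and calls below, also of members said not to pass, are on the authors' scale unless another is named. Some of the 19 members lower under TPM and of the 17 with total reads were not called on the authors' scale. In bulk RNA, fewer cells with a transcript and less of it per cell cannot be told apart.

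**Figure D2:**
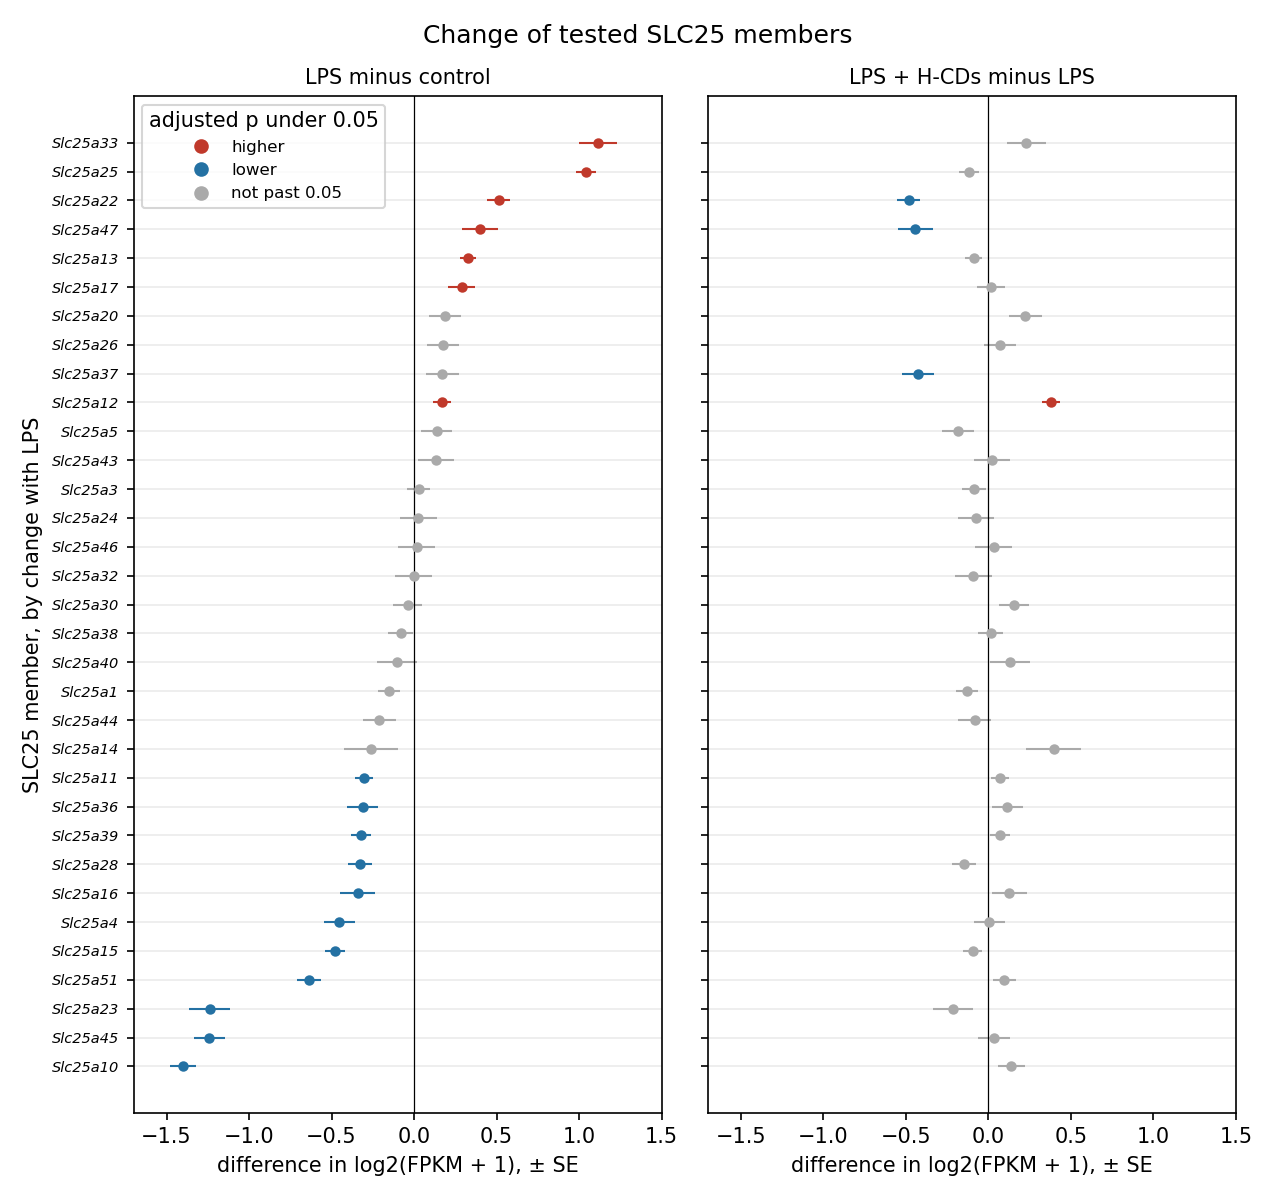
Difference in log2(FPKM + 1) for 33 of the 34 tested SLC25 members, with its standard error, for LPS minus control on the left and LPS + H-CDs minus LPS on the right, 3 libraries a group. Red and blue mark members called higher and lower at an adjusted p of 0.05 by limma; 18 are coloured on the left and 4 on the right.

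The ADP/ATP and phosphate carriers were the most abundant. On the authors' scale 1 of their 3 tested members was called with LPS, where 55.6% of all tested genes were. Slc25a5 gave 437, 485 and 480 FPKM in control, 499, 518 and 524 with LPS, and 391, 495 and 477 with LPS + H-CDs. Its LPS libraries were all above control, yet the log2 difference of 0.14 ± 0.095 (SE) did not pass the test (adjusted p = 0.254, limma). With H-CDs all 3 libraries lay below LPS, and the difference of -0.18 ± 0.095 did not pass either (adjusted p = 0.228, limma); without LPS + H-CDs replicate 1, its lowest library, it was -0.08.

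Slc25a4 gave 76.4, 76.9 and 89.2 FPKM in control, 55.0, 57.5 and 63.6 with LPS, and 65.2, 57.4 and 54.1 with LPS + H-CDs. It fell with LPS without overlap, by 0.45 ± 0.094 on the log2 scale (adjusted p = 0.00259, limma), and its LPS + H-CDs libraries overlapped LPS, with 1 above and 1 below the LPS range. Slc25a3 stayed within 86.0 to 103 FPKM in all 9 libraries, with overlapping groups and adjusted p of 0.772 and 0.464 (limma) for the LPS and H-CDs steps. That rests on the authors' scale. Slc25a3 was called lower with LPS under TPM (-0.32, adjusted p = 0.00170, limma) and with total reads (-0.26, adjusted p = 0.00999, limma). Slc25a31, the ADP/ATP carrier known from testis, had no read in any library. Slc25a4 and Slc25a5 are close paralogues, and how reads that fit both were counted is not given in the sources used here.

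The ATP-Mg/phosphate carriers exchange adenine nucleotides for phosphate under the control of calcium, and with LPS they went apart. Slc25a25 (chr2:32414487-32451445) gave 4.53, 4.88 and 4.77 FPKM in control, 10.7, 11.1 and 10.5 with LPS, and 10.3, 9.88 and 9.40 with LPS + H-CDs. It rose 2.28-fold with LPS, by 1.04 ± 0.059 on the log2 scale (adjusted p = 4.73e-07, limma), and remained 2.09-fold above control with H-CDs (adjusted p = 1.37e-06). All LPS + H-CDs libraries were below all LPS libraries, a difference of -0.12 that did not pass (adjusted p = 0.210). It has 1 of the TGACGTCA windows printed above, and 4.82% of its exonic bases overlap Naif1 on the opposite strand, which stood at 3.98 FPKM.

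Slc25a23 (chr17:57043711-57059863) moved the other way. Its libraries gave 8.60, 9.03 and 9.31 FPKM in control, 3.09, 3.57 and 3.04 with LPS, and 1.96, 2.91 and 3.17 with LPS + H-CDs. It fell by 1.24 ± 0.12 on the log2 scale with LPS (adjusted p = 2.28e-05, limma), and its mean FPKM fell by 64.0%. The step with H-CDs overlapped LPS (adjusted p = 0.273), with LPS + H-CDs replicate 1 lowest. Slc25a24, the other tested paralogue, overlapped between groups at means of 8.64, 8.77 and 8.26 FPKM (adjusted p = 0.854 with LPS), and Slc25a41, which lies 2056 bases from Slc25a23, had no read.

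The iron carriers, called mitoferrins, bring iron to the matrix for heme and iron-sulphur cluster assembly. Slc25a37, mitoferrin 1, best known from red cell precursors, gave 12.5, 11.6 and 11.6 FPKM in control, 13.7, 13.9 and 12.9 with LPS, and 8.10, 10.9 and 10.6 with LPS + H-CDs. All LPS + H-CDs libraries were below all others. It fell with H-CDs by 0.43 ± 0.099 on the log2 scale (adjusted p = 0.0198, limma), from a mean of 13.5 to 9.87 FPKM. The call was lost without LPS replicate 1 (adjusted p = 0.0667) or LPS replicate 2 (adjusted p = 0.0742), and with no filter on low values (adjusted p = 0.0514). Without LPS + H-CDs replicate 1, its lowest library, the fall was 0.30 on the log2 scale and still passed (adjusted p = 0.0173). Against control the H-CDs libraries were all lower too, with an adjusted p of 0.0564.

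Slc25a28, mitoferrin 2, which most tissues use, was the more abundant of the pair. It gave 25.6, 30.6 and 29.1 FPKM in control, 21.7, 22.9 and 22.7 with LPS, and 19.1, 20.2 and 21.1 with LPS + H-CDs. It fell with LPS by 0.33 ± 0.074 on the log2 scale (adjusted p = 0.00419, limma), and with H-CDs lay lower again without passing (-0.15, adjusted p = 0.208). The 3 groups did not overlap.

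Around the mitoferrins, 12 genes of mitochondrial iron use, covering heme synthesis and iron-sulphur clusters, were all tested. With LPS 1 rose and 8 fell, and with H-CDs 4 rose and 8 did not pass, with medians of -0.39 and 0.21 on the log2 scale. Of all tested genes, 28.8% rose and 26.8% fell with LPS, and 6.54% rose and 9.05% fell with H-CDs. Their medians were 0.03 and -0.01. Alas1, which makes the first heme precursor, went from 5.15 to 7.82 FPKM with LPS and to 13.9 with H-CDs (adjusted p = 1.04e-04 for the second step). Fech, which inserts iron into heme, went from 11.8 to 7.62 with LPS and to 9.68 FPKM with H-CDs (adjusted p = 3.63e-05 and 0.00885). Hscb, a chaperone of iron-sulphur assembly, fell with LPS from 15.4 to 5.84 FPKM (-1.27, adjusted p = 9.18e-05), and its step to 7.81 with H-CDs did not pass (adjusted p = 0.141). Iscu, the assembly scaffold, fell with LPS from 26.5 to 18.6 FPKM (adjusted p = 0.00137). Cpox, a heme synthesis enzyme, and Isca1, an iron-sulphur assembly factor, also rose with H-CDs (adjusted p = 0.0335 and 0.0297).

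Of the glutathione carriers, Slc25a39 gave 65.6, 72.3 and 72.7 FPKM in control, 53.3, 57.5 and 57.2 with LPS, and 57.6, 59.3 and 59.4 with LPS + H-CDs. It fell with LPS by 0.32 ± 0.062 on the log2 scale (adjusted p = 0.00166, limma). The LPS + H-CDs libraries were all above LPS by a small step of 0.07 that did not pass (adjusted p = 0.493), and stayed below control (adjusted p = 0.00737). Its paralogue Slc25a40 was the lowest tested member, at 1.25 to 2.06 FPKM in control, 1.40 to 1.55 with LPS and 1.58 to 1.91 with LPS + H-CDs. No step of Slc25a40 passed the test (adjusted p = 0.498 with LPS and 0.516 with H-CDs).

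The carriers of di- and tricarboxylates included 1 of the deepest falls. Slc25a10 (chr11:120491840-120499187), which exchanges malate and succinate for phosphate, gave 20.4, 23.6 and 24.4 FPKM in control, 8.26, 7.37 and 8.42 with LPS, and 8.93, 8.59 and 9.26 with LPS + H-CDs. LPS lowered it by 1.40 ± 0.080 on the log2 scale (adjusted p = 5.16e-07, limma), the lowest log2 fold change of a member in this comparison. The LPS + H-CDs libraries were all slightly above LPS (0.14, adjusted p = 0.277) and below control (adjusted p = 1.36e-06).

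Slc25a11, the oxoglutarate carrier of the malate-aspartate shuttle, gave 47.1, 51.4 and 50.6 FPKM in control, 39.9, 39.8 and 40.5 with LPS, and 43.3, 41.9 and 41.3 with LPS + H-CDs. It fell by 0.30 ± 0.055 on the log2 scale with LPS (adjusted p = 0.00118, limma), and its step of 0.07 with H-CDs did not pass (adjusted p = 0.425). Slc25a1, the citrate carrier, gave 43.2, 49.8 and 49.0 FPKM in control, 43.9, 41.3 and 42.0 with LPS, and 38.4, 39.8 and 37.7 with LPS + H-CDs. Its LPS libraries overlapped control and the step of -0.15 ± 0.067 did not pass (adjusted p = 0.0798), although it did in 4 alternatives. These were without control replicate 1 (adjusted p = 0.0152), in edgeR (0.0412), under TPM (-0.50, 7.04e-05) and with total reads (-0.44, 2.65e-04). The LPS + H-CDs libraries lay below both other groups; the difference passed against control (-0.28, adjusted p = 0.00601, limma) and not against LPS (adjusted p = 0.224). Slc25a21, the oxodicarboxylate carrier, had no read.

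All 3 tested aspartate and glutamate carriers rose with LPS, where 28.8% of all tested genes did, and H-CDs moved 2 of them in opposite directions. Under TPM the 3 were no longer called higher with LPS, at -0.17 for Slc25a12, -0.0081 for Slc25a13 and 0.20 for Slc25a22 (adjusted p = 0.0246, 0.918 and 0.0540, limma). Slc25a12 (chr2:71271063-71367749), a calcium-regulated aspartate/glutamate exchanger of the malate-aspartate shuttle, gave 20.6, 21.1 and 21.8 FPKM in control, 23.9, 22.9 and 24.9 with LPS, and 30.5, 31.8 and 31.9 with LPS + H-CDs. The 3 groups did not overlap. Its rise with LPS was small, 0.17 ± 0.055 on the log2 scale (adjusted p = 0.0274, limma), and was lost without 4 of the 9 libraries in turn, control replicates 1 and 2 and LPS replicates 1 and 3, with adjusted p from 0.0596 to 0.101, and in edgeR (0.105). With H-CDs it rose 1.31-fold, by 0.38 ± 0.055 on the log2 scale (adjusted p = 0.00205, limma), the only member called higher in that comparison.

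Slc25a22 (chr7:141429744-141437892), a glutamate carrier, moved up with LPS and back down with H-CDs. It gave 9.86, 11.0 and 10.8 FPKM in control, 15.3, 15.5 and 15.5 with LPS, and 10.2, 10.3 and 11.9 with LPS + H-CDs. It rose 1.47-fold with LPS (0.51 ± 0.070, adjusted p = 2.02e-04, limma) and fell by 0.48 ± 0.070 with H-CDs (adjusted p = 0.00203). With total reads its LPS step was 0.25 (adjusted p = 0.0136). On the authors' scale LPS + H-CDs overlapped control, with a log2 difference of 0.03 and an adjusted p of 0.750 (limma). The H-CDs fall was larger than the LPS rise under TPM (-0.47 against 0.20) and with total reads (-0.41 against 0.25). Its difference from control on those scales is not given here. Without LPS + H-CDs replicate 1 the H-CDs steps of Slc25a22 and Slc25a12 were -0.45 and 0.40 (adjusted p = 0.00681 and 0.00378). Slc25a13, the paralogue of Slc25a12, rose from 20.9 to 26.5 FPKM with LPS (0.33, adjusted p = 4.23e-04) and stood at 24.8 with H-CDs (adjusted p = 0.262). Slc25a18, a second glutamate carrier, was under FPKM 1.

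Among carriers of other amino acids and carnitine, 1 of 6 tested rose and 2 fell with LPS, against 28.8% and 26.8% of all tested genes. Slc25a45 (chr19:5877808-5885766), placed here by its sequence likeness to carnitine carriers, gave 13.7, 13.6 and 15.1 FPKM in control, 5.29, 5.22 and 5.70 with LPS, and 4.68, 6.34 and 5.74 with LPS + H-CDs. It fell by 1.24 ± 0.095 on the log2 scale with LPS (adjusted p = 4.21e-06, limma), and H-CDs left it overlapping LPS (adjusted p = 0.858). Slc25a15, the ornithine carrier of the urea cycle, gave 5.81, 5.57 and 5.58 FPKM in control, 3.58, 3.78 and 3.95 with LPS, and 3.49, 3.45 and 3.44 with LPS + H-CDs. It fell by 0.48 ± 0.060 with LPS (adjusted p = 1.14e-04, limma), and all LPS + H-CDs libraries were below LPS by a step that did not pass (adjusted p = 0.319).

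Slc25a47 was low and moved both ways. It gave 1.40, 1.82 and 1.43 FPKM in control, 2.03, 2.57 and 2.50 with LPS, and 1.51, 1.61 and 1.30 with LPS + H-CDs. It rose with LPS (0.40 ± 0.11, adjusted p = 0.0108, limma) and fell with H-CDs by 0.44 ± 0.11 (adjusted p = 0.0238), to overlap control on the authors' scale. The H-CDs step was -0.54 under TPM and -0.38 with total reads, larger in size than the LPS step there. The LPS call was lost under TPM (0.23, adjusted p = 0.195) and with total reads (0.21, adjusted p = 0.116). The H-CDs call was lost with no filter (adjusted p = 0.0697) and without LPS replicate 2, LPS replicate 3 or LPS + H-CDs replicate 3, with adjusted p from 0.0664 to 0.0941. In the gene table its span begins 162 bases from that of Slc25a29, a basic amino acid carrier on the opposite strand that was under FPKM 1. Slc25a20, the carnitine/acylcarnitine carrier of fatty acid oxidation, passed only against control with H-CDs (2.03 to 3.05 FPKM, 0.41 on the log2 scale, adjusted p = 0.00633), and not under TPM (0.24, adjusted p = 0.114). Slc25a38, which brings glycine for heme synthesis, overlapped at 13.6 to 16.2 FPKM throughout. Slc25a44, a branched-chain amino acid carrier, was lower with H-CDs than in control (adjusted p = 0.0320), a call lost without control replicate 1 or 2 or without LPS + H-CDs replicate 1 or 2 (adjusted p from 0.0553 to 0.104), with no filter (0.0696) or with only these groups in the fit (0.0601).

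**Figure D3:**
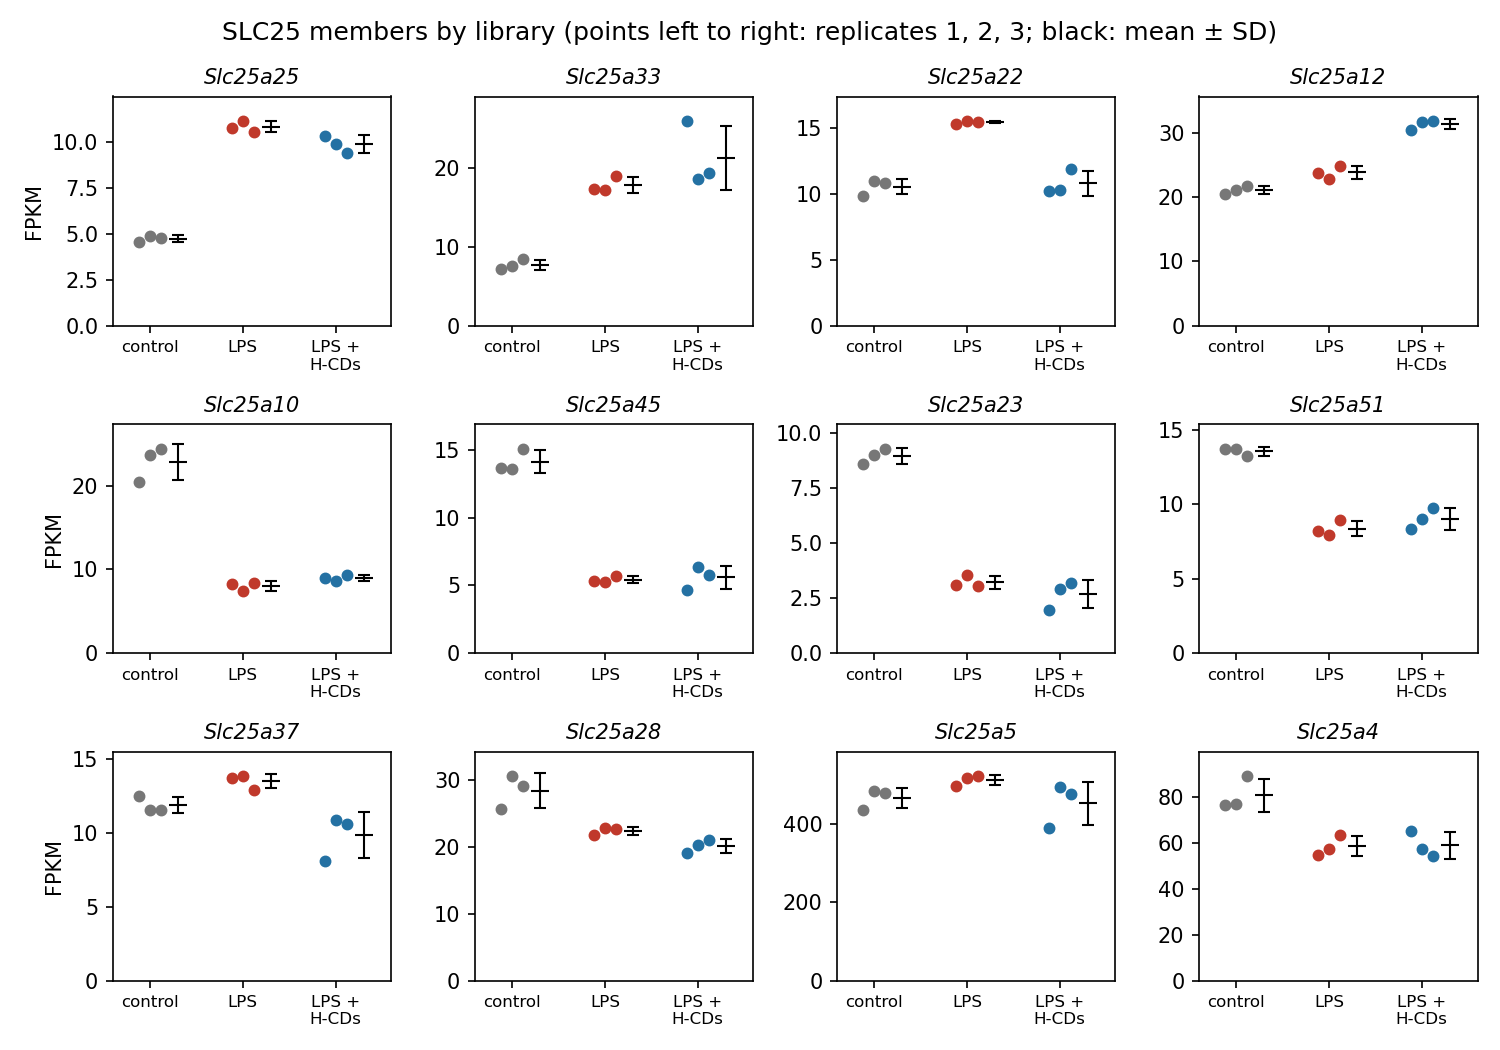
FPKM of 12 SLC25 members by library, with 3 points per group for replicates 1 to 3 and the mean ± SD beside them; each panel has its own axis from 0. On the authors' scale Slc25a22 went to 10.8 FPKM with LPS + H-CDs from 15.4 with LPS, Slc25a12 reached 31.4, and Slc25a10, Slc25a45 and Slc25a23 stayed low in both LPS groups.

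Carriers of nucleotides and cofactors moved in both directions with LPS. Slc25a33 (chr4:149744036-149774277), a pyrimidine nucleotide carrier, gave 7.20, 7.55 and 8.41 FPKM in control, 17.3, 17.2 and 19.0 with LPS, and 26.0, 18.6 and 19.4 with LPS + H-CDs. It rose 2.31-fold with LPS, by 1.11 ± 0.12 on the log2 scale (adjusted p = 3.63e-05, limma), the highest of a member in this comparison. The H-CDs step overlapped LPS (0.23, adjusted p = 0.224), with the highest value in LPS + H-CDs replicate 1. An unnamed gene, Gm13068, overlaps 14.9% of its exonic bases on the opposite strand and stood at 0.791 FPKM. Slc25a36, the other pyrimidine nucleotide carrier, fell with LPS from 4.77 to 3.65 FPKM (adjusted p = 0.0180), a call lost without control replicate 1 (0.0629) or LPS replicate 3 (0.0665).

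Slc25a51 (chr4:45395923-45408766), the carrier of NAD, gave 13.7, 13.7 and 13.2 FPKM in control, 8.21, 7.95 and 8.92 with LPS, and 8.30, 8.99 and 9.77 with LPS + H-CDs. It fell by 0.64 ± 0.070 on the log2 scale with LPS (adjusted p = 4.90e-05, limma), and H-CDs left it overlapping LPS (adjusted p = 0.398).

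Slc25a17, a peroxisomal carrier of cofactors, rose with LPS from 11.6 to 14.4 FPKM (adjusted p = 0.0164, limma), and Slc25a16 fell from 5.00 to 3.75 FPKM (adjusted p = 0.0223). Both calls were lost without some single libraries: control replicates 1 and 2 and LPS replicate 2 for Slc25a17 (adjusted p from 0.0530 to 0.0678), and control replicates 1 and 3 and LPS replicates 2 and 3 for Slc25a16 (0.0591 to 0.0848). Slc25a16 also lost its call with no filter (0.0560), and Slc25a17 under TPM and with total reads (0.730 and 0.858). Slc25a26, the carrier of the methyl donor S-adenosylmethionine, and Slc25a32, a folate and FAD carrier, passed in no comparison, at 1.38 to 2.27 and 5.43 to 7.64 FPKM. The uncoupling-like Slc25a14 and Slc25a30, the outer membrane member Slc25a46 and Slc25a43 passed in none either. Slc25a14 had the widest H-CDs step of these, 0.40 ± 0.17 (adjusted p = 0.142). All this is on the authors' scale, and values of these members under TPM and with total reads are not given here.

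The 13 members under FPKM 1 were not tested in the main fit. Among them 9 had at least 1 read somewhere and 4 had none, namely Slc25a41, Slc25a31, Slc25a21 and Slc25a48. Slc25a42, a coenzyme A carrier and the highest of the 13, had 72, 73 and 84 reads in control, 16, 30 and 20 with LPS, and 26, 23 and 21 with LPS + H-CDs. Slc25a35 had 23, 24 and 27 reads in control, 5, 3 and 5 with LPS, and 4, 10 and 8 with LPS + H-CDs. In both, all control libraries were above all others, as read counts with no test in the main fit. The other 7 with reads were Slc25a18, Slc25a53, Slc25a29, Slc25a2, Slc25a34, Slc25a54 and Slc25a27.

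The authors' deposited table compares LPS + H-CDs with LPS and lists 42 of the members. It has 4 members past an adjusted p of 0.05, 1 higher and 3 lower, where 10.1% of its 21576 genes pass. On the log2 scale Slc25a12 has 0.41 in the authors' deposited table, Slc25a22 -0.50, Slc25a37 -0.44 and Slc25a47 -0.67. That table was made from the same reads, so it is no second measurement.

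Genes around the family were read from lists of their own. Of all tested genes, 28.8% rose and 26.8% fell with LPS, and 6.54% rose and 9.05% fell with H-CDs. Family members named otherwise had 3 tested genes, and 2 of them fell with LPS. Ucp2, an inner membrane carrier once named for uncoupling, went from 115 to 96.7 FPKM (adjusted p = 0.0480) and Mtch1, an outer membrane relative, from 38.0 to 24.6 (adjusted p = 1.20e-04, limma). With H-CDs the 3 did not pass, with adjusted p of 0.190 for Ucp2, 0.596 for Mtch1 and 0.672 for Mtch2. Of 13 genes that import carriers into the inner membrane, 1 rose and 2 fell with LPS. Tomm70a, the receptor for carrier precursors, rose from 26.9 to 33.9 FPKM (adjusted p = 0.00376), while Timm22 and Timm29, of the carrier translocase, fell (adjusted p = 0.00348 and 4.10e-05). With H-CDs only Tomm40, the entry pore, was called among the 13, and it was lower (adjusted p = 0.0163). Of 3 outer membrane channels, Vdac1 fell with LPS (adjusted p = 0.00450) and Vdac3 rose with H-CDs (adjusted p = 0.0215).

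Of 15 tested genes of other inner membrane transport, 2 rose and 6 fell with LPS, and 1 rose with H-CDs. The shares of all tested genes were 28.8% higher and 26.8% lower with LPS, and 6.54% higher with H-CDs. Abcb8, of a mitochondrial potassium channel, fell with LPS from 12.6 to 7.82 FPKM (-0.62, adjusted p = 6.23e-05, limma). Sfxn3, a sideroflexin, fell from 6.12 to 3.17 FPKM (-0.78, adjusted p = 7.71e-05). Mcu, the calcium uniporter pore, rose with LPS from 2.40 to 3.37 FPKM (adjusted p = 0.00106). Ghitm, an inner membrane protein, rose in both steps, from 73.4 to 94.1 to 116 FPKM (adjusted p = 0.00157 and 0.0186). Of 8 tested genes of mitochondrial mass and biogenesis, 1 rose and 4 fell with LPS and 1, Tfam, which packages mitochondrial DNA, rose with H-CDs (adjusted p = 0.0459). Ppargc1b, a coactivator of mitochondrial gene expression, fell with LPS from 6.50 to 2.87 FPKM (-0.95, adjusted p = 1.68e-04, limma), and Gabpa, a regulator of such genes, rose from 14.1 to 18.8 FPKM (adjusted p = 0.00287). Vdac1 and Polrmt, the mitochondrial RNA polymerase, fell (adjusted p = 0.00450 and 0.0256). Tomm20 and Vdac1 stand in 2 of these lists each. Values of list genes under the other scalings are not given here. The member Slc25a13, which rose by 0.33 with LPS, was at -0.0081 under TPM. Whether rises of near that size, as for Tomm70a, Mcu, Ghitm and Gabpa, hold on another scale was not tested.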

How the data were processed

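RNA of 9 RAW 264.7 libraries was selected on poly-T beads and copied from random hexamer primers, per the labels' protocols. Genome build GRCm38 (mm10) is named in the submitters' processing notes; the aligner, counter, strand setting and normalization were not given in the sources used here. The gene table holds FPKM deposited by the authors. Multiplied by gene length, the values were whole reads within 0.01 in 100% of cases, and the depth they were scaled by was 1.13 to 1.15 times each library's own total in control, 0.928 to 0.935 times with LPS and 0.983 to 0.993 times with LPS + H-CDs. The authors' deposited comparison table gives a normalized signal per library, log2 fold changes and p-values. No column of per-sample values was left unused (0). Counting error alone limits the recovered read counts. Genes overlapping on the other strand cannot be told apart without strand.

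Tests used limma 3.58.1 (R 4.3.3) with an intensity trend on log2(FPKM + 1), 1 fit over all 9 libraries with group as the only term, 2-sided, with Benjamini-Hochberg adjustment over 11707 genes at 0.05. The code was tested on simulated data. Alternatives were pseudocount 0.1, no filter, a filter of FPKM 5, TPM, total reads, no trend, 2 groups only, a replicate block, leaving out each library, and edgeR 4.0.16 and DESeq2 1.42.0 on the recovered whole counts. Full values are given for the 8 smallest adjusted p per comparison among called members, the 5 most abundant members, and the mitoferrins, glutathione, citrate, ADP/ATP and phosphate carriers; list genes named are up to 4 a list by smallest adjusted p with LPS, and those called with H-CDs. Promoters were chosen after values were seen and partly for their motifs, and protein sequences were not used here. The members and lists were chosen with earlier results of these data known. Gene positions are those of the deposited table; 44 of the 47 members have the same start and end in GENCODE M21. One member and one list gene enter the counts but are not reported here. Figures were drawn with matplotlib 3.10.9.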

Additional observations from a re-analysis of the deposited data

How the results depend on the processing

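Most single-member results that were followed kept direction and side of the threshold, 949 of the comparisons with an alternative. Of the others, 48 fell below it, 6 rose above it and 16 changed sign. The counts and sign changes here cover members called in a comparison's main fit. Except for LPS + H-CDs against control, they also cover Slc25a1, Slc25a3, Slc25a4, Slc25a5, Slc25a11, Slc25a28, Slc25a37, Slc25a39 and Slc25a40. Other uncalled members were not followed, so any that became called are not among the 6. Some of the 19 members called lower with LPS under TPM were of this kind. Part of the 949 was fixed beforehand. Filters, no trend, 2 groups only, the replicate block and leaving out a library of the third group cannot change the log2 fold change. Members that were not called and stayed so are also among the 949. The H-CDs calls of Slc25a12 and Slc25a22, and the LPS calls of Slc25a10, Slc25a45, Slc25a23, Slc25a51, Slc25a15, Slc25a25 and Slc25a33, held under every alternative run. Signs turned for LPS against control under TPM in Slc25a12 (-0.17), Slc25a13 (-0.0081), Slc25a17 (-0.0373), Slc25a3 (-0.32), Slc25a37 (-0.16) and Slc25a5 (-0.21), and in total reads in Slc25a12 (-0.11), Slc25a3 (-0.26), Slc25a37 (-0.10) and Slc25a5 (-0.15). Both scalings multiply each library by 1 factor, and the median of all tested genes moved with them. Slc25a3 turned in edgeR (-0.0115), Slc25a40 without control replicate 1 (0.0014, in a range from -0.2208 without single libraries), Slc25a13 for LPS + H-CDs against control under TPM (-0.0619), and the H-CDs step of Slc25a4 without LPS replicate 1 (-0.04), LPS replicate 2 (-0.0097) or LPS + H-CDs replicate 1 (-0.0706, in a range up to 0.0626); the cause was not tested.

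With LPS, TPM called 2 members higher and 19 lower (median -0.35) and total reads 3 and 17 (median -0.27); the edgeR median was -0.0643. For LPS + H-CDs against control, TPM called 3 higher and 21 lower (median -0.36) and total reads 17 lower (median -0.26), and medians were -0.0809 with the filter of FPKM 5, -0.0778 in edgeR and -0.0764 in DESeq2. For LPS + H-CDs against LPS, 2 were lower with no filter. Medians of that comparison were -0.08 with the filter of FPKM 5, 0.0546 under TPM, 0.0871 with total reads and 0.0471 in edgeR. Leaving out 1 library gave 6 to 9 higher and 9 to 12 lower with LPS (median -0.0741 to 0.0118), 1 higher and 1 to 4 lower for the H-CDs step (median -0.0359 to 0.0194; 2 lower without LPS replicate 1 and 1 without LPS replicate 2), and 6 higher and 10 to 12 lower for LPS + H-CDs against control (median -0.1037 to -0.0275). All genes called for the H-CDs step ran from 1022 to 1760, with 1098 without LPS replicate 1, 1022 without LPS replicate 2 and 1185 without LPS + H-CDs replicate 2. At FPKM 5, 21 members reached the threshold.

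Libraries of the same number deviated together with r from -0.12 to 0.20 over 9 pairs, and those of different numbers from -0.17 to 0.17 over 18 pairs. Ranges this alike cannot settle whether the numbers pair the samples. The replicate block left the member counts at 8 and 11, 1 and 4, and 6 and 11, with 6276, 1485 and 5836 genes called in all. edgeR gave 7 and 13, 1 and 3, and 7 and 13 members, and DESeq2 8 and 11, 1 and 3, and 6 and 12. Low members rest on few reads, and members under FPKM 1 were not tested in the main fit. With no filter, those with a read were fitted too, and 12 members were called lower with LPS. Values of the low members in that fit are not given here.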
